A study of Saccharomyces cerevisiae Vin13 with 18 samples.

Results

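The DNA replication machinery was followed here as 44 genes of budding yeast, chosen by name: the origin recognition complex and its loading partners, the MCM helicase, the firing factors, the polymerases with primase, the sliding clamp and its loader, the single-strand binding protein RPA, 2 enzymes that join Okazaki fragments, and ribonucleotide reductase. Probe sets were taken where the array's annotation lists the member's symbol. All 44 members were measured, each by 1 probe set, among 5449 Saccharomyces cerevisiae genes in all.

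Chromosome replication in yeast starts at origins that the origin recognition complex marks and onto which Cdc6 and Cdt1 (gene TAH11) load the MCM ring in G1. In S phase, cyclin-dependent kinase and Cdc7 kinase act on Sld2, Sld3 and MCM, so that Cdc45 and the GINS complex join the ring and unwind DNA ahead of the polymerases. Many of these genes are known to be transcribed in a wave around the G1/S transition, and replication ceases when cells leave the cycle for stationary phase.

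The cells were VIN13, a commercial wine strain, and all 6 groups were the same strain with no added agent or gene deletion named in the labels. They were grown in Chardonnay must at 20 °C from a starting OD600 of 0.1, either in microaerobic vials of 80 ml or in commercial tanks of 300 L. Each scale was sampled on day 2, which the study calls exponential growth, and on days 5 and 10, which it calls early and late stationary phase. Each of the 6 groups held 3 arrays labelled as biological replicates, 18 arrays in total, and p-values measure the spread between these replicates. The comparisons ask how the 2 scales differed on a given day, how each scale changed over time, and whether the 2 scales changed by the same amount.

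All values are log2 of the deposited array signal, and a gene was called in a comparison at an adjusted p under 0.05 (limma, Benjamini-Hochberg adjustment over all 5449 genes). The array also carries probe sets for fission yeast. Those listed with a gene symbol outside the S. cerevisiae reference were used, and their 95th percentile (log2 4.48) served as the background level. Between 5352 and 5385 genes lay above it on each array. Every member did so on every array, with values from 5.11 to 13.72. Within a group, arrays correlated over genes at 0.974 or more in day 10 tanks and at 0.99 or more elsewhere, and replicate 2 of the day 10 tanks stood apart from the other 2. The difference between 3′ and 5′ control probe sets, a measure of how complete the RNA and its copying were, moved with both factors: group means were 1.00, 1.46 and 1.78 in vials on days 2, 5 and 10, and 0.83, 1.15 and 1.36 in tanks (SD 0.03 to 0.09, n = 3). Its part in the results was not tested.

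**Figure D1:**
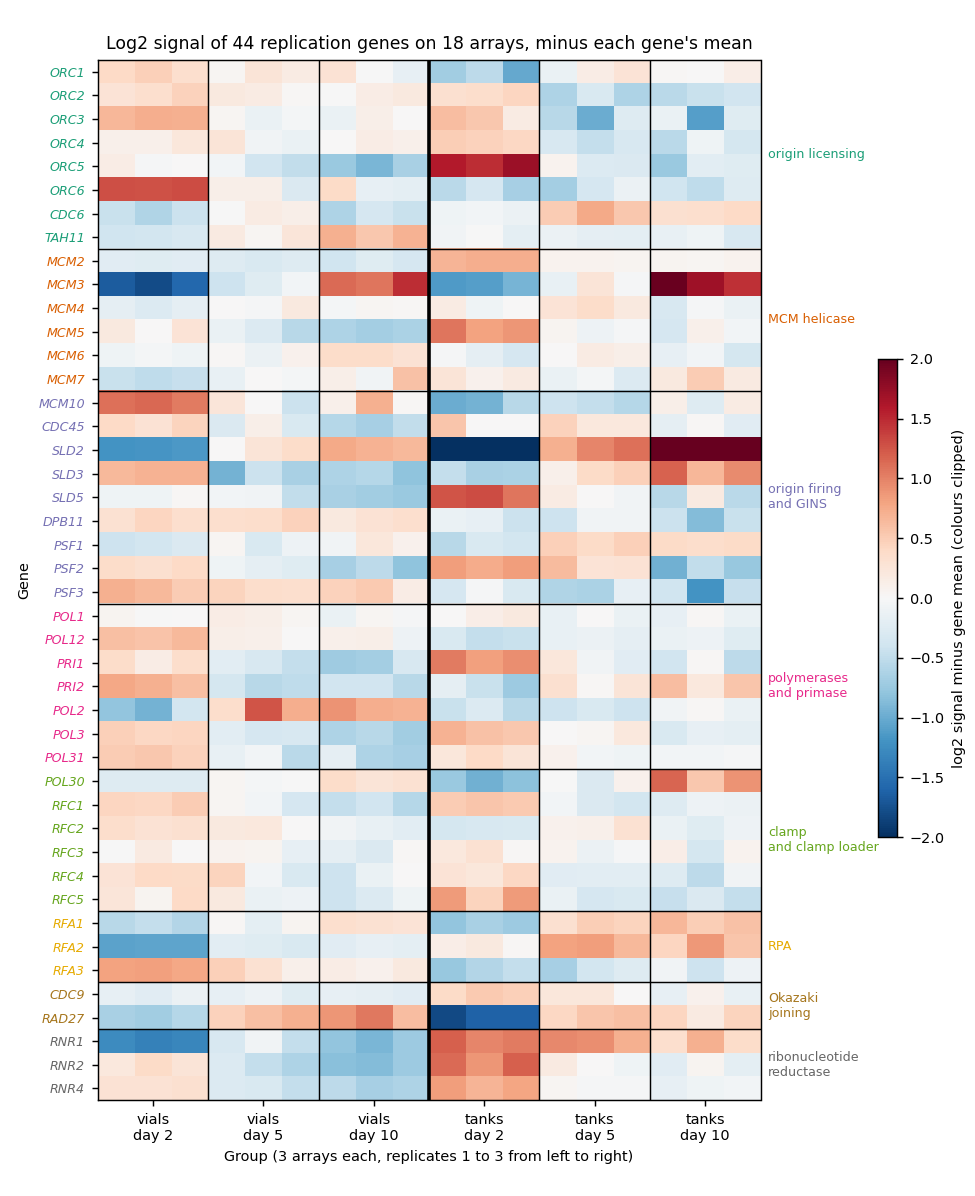
Log2 signal of the 44 replication genes (rows, grouped by role) on the 18 arrays (columns, 3 per group), minus each gene's mean over the arrays. Colours end at -2 and 2, and SLD2 in tanks and MCM3 at both scales pass through the widest range of colour.

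The replication genes did not move as a block. The highest group mean of a member lay in day 2 tanks for 17 members and in day 2 vials for 12, which is 38.6% and 27.3% of the 44 against 31.1% and 25.5% of all genes. The lowest mean lay in day 10 vials for 13 members and in day 2 tanks for 11, which is 29.5% and 25% against 25.5% and 27.1% of all genes. Members varied less over the 6 groups than genes in general, with a median range of group means of 1.20 against 1.40. Only 5 of 44 (11.4%) spanned 2 log2 units or more, against 23.5% of all genes: SLD2 (5.91), MCM3 (3.38), RAD27 (2.54), RNR1 (2.37) and ORC5 (2.36). POL1, the catalytic subunit of polymerase alpha, spanned 0.21, RFC3 of the clamp loader 0.33 and MCM4 0.49. These are bulk measurements, so fewer cells in S phase and less RNA of a gene per cell cannot be told apart.

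Between the scales on day 2, ribonucleotide reductase, most MCM subunits, SLD5, ORC5 and RFA2 were higher in tanks. SLD2, MCM10, ORC6, RFA3, SLD3, PRI2, ORC1, RAD27 and POL12 were lower by over 1 log2 unit. Of the 44 members, 18 were higher (38.2% of all genes were), 13 lower (39.1% of all genes) and 13 not called. Over all genes 77.3% were called, so the members' share (70.5%) was near the background. A difference of 2-fold or more as well was seen for 13 of the 44 members (4 higher, 9 lower), against 32% of all genes. The median difference was 0.09 over the members and -0.01 over all genes. Repeating quantile normalization over the S. cerevisiae probe sets alone moved the all-gene median to 0.11 and gave 27 members higher and 13 lower.

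On day 5, 16 members were higher in tanks, 9 lower and 19 not called. Over all genes 61.9% were called, 33.1% higher and 28.8% lower. With a 2-fold difference required as well, 3 members were called, against 13.9% of all genes. The largest positive differences were RNR1 (1.15), RFA2 (1.02), SLD3 (1.00) and SLD2 (0.72), and the largest negative ones POL2 (-1.16), PSF3 (-0.85), RFA3 (-0.72) and ORC2 (-0.64). Under the repeated quantile normalization the split was 20 to 6, and after the trend of the differences of all genes on coding length was subtracted (the length trend) 13 to 12. On day 10, 20 members were higher, 11 lower and 13 not called. Over all genes 58.7% were called, 32.3% higher and 26.4% lower. At 2-fold or more there were 4 members, against 12.2% of all genes. SLD2 (1.92), SLD3 (1.59), RNR1 (1.28) and PRI2 (0.90) had the largest positive differences, and PSF3 (-1.06), DPB11 (-0.86), TAH11 (-0.83) and POL2 (-0.83) the largest negative ones. Without replicate 2 of the day 10 tanks, 17 were higher and 9 lower, and with the length trend removed 14 and 12.

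**Figure D2:**
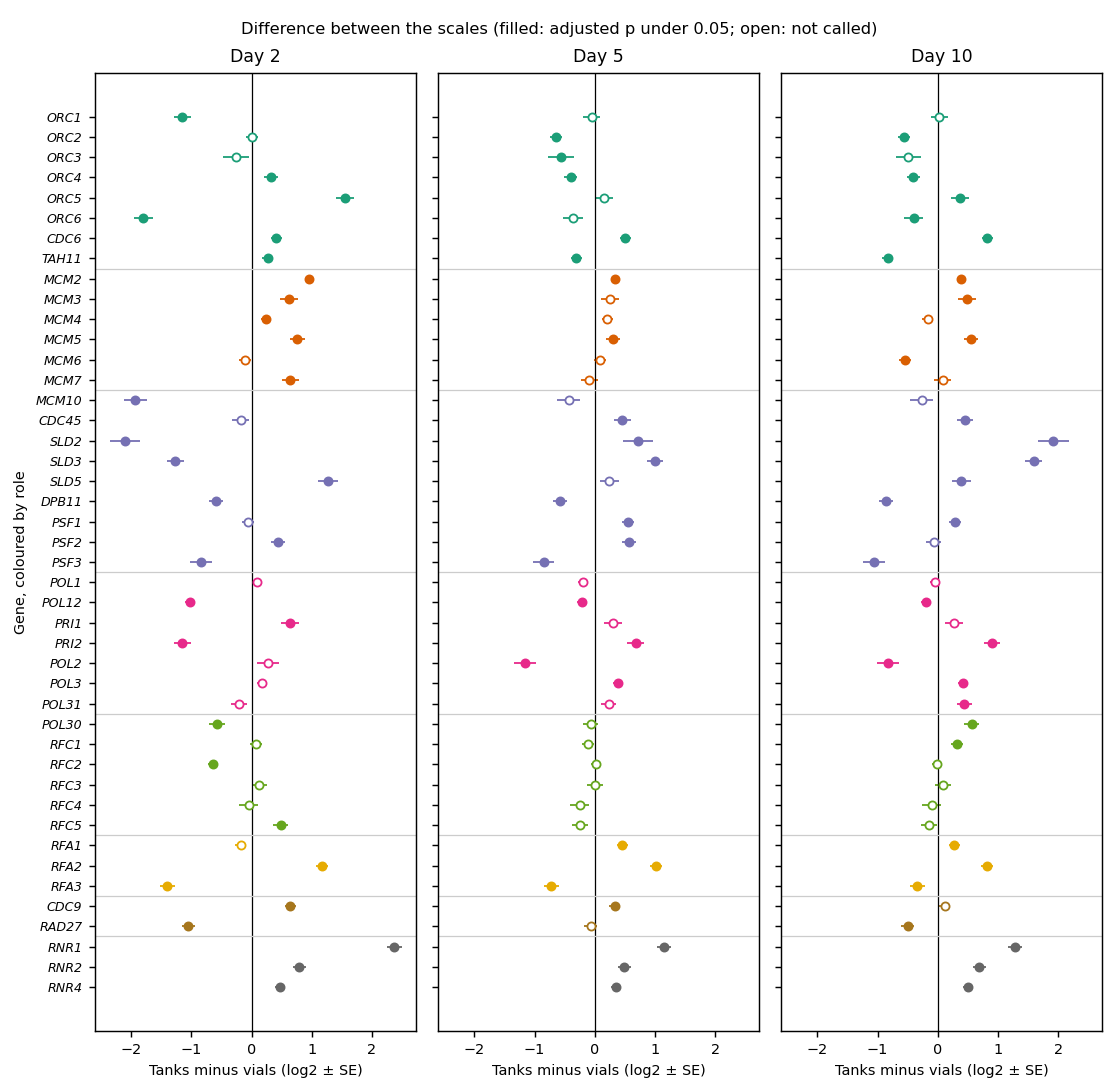
Difference between tanks and vials on days 2, 5 and 10 (x axis, log2, bars are the SE from the fit) for each of the 44 genes (y axis, coloured by role); filled points are called. Subunits of one complex lie on both sides of 0 on day 2, while the 3 ribonucleotide reductase genes lie to the right of 0 on all 3 days.

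With time in vials, from day 2 to day 5, MCM3, POL2, SLD2, RAD27 and RNR1 rose by over 1 log2 unit, and SLD3, ORC6, PRI2 and MCM10 fell by over 1. Of the members 11 rose, 18 fell and 15 were not called. Over all genes 67.6% were called, 26.5% rising and 41.1% falling. At 2-fold or more there were 9 members, against 20.8% of all genes. Their median was -0.21 against -0.16 over all genes. The repeated quantile normalization moved the all-gene median to -0.04 and turned the split to 16 risen and 13 fallen. From day 5 to day 10, 4 members rose, 11 fell and 29 were not called. Over all genes 30.7% were called, 11.3% rising and 19.5% falling. MCM3 (1.46) was the 1 member at 2-fold or more, against 2.64% of all genes. TAH11 (0.49), RFA1 (0.35) and MCM6 (0.34) were the other rises, and CDC6 (-0.56), RNR1 (-0.52), PSF2 (-0.50) and SLD5 (-0.49) led the falls. The calls of MCM6 (0.28, adjusted p = 0.0721) and SLD5 (-0.42, adjusted p = 0.112) ended without replicate 2 of the day 5 vials. That of SLD5 also ended without replicate 1 of the day 5 vials, without any one of the day 10 vial arrays, or with the length trend removed (-0.37, adjusted p = 0.0958). The count of 15 was 9 without replicate 1 and 7 without replicate 2 of the day 5 vials, and the split was 6 to 5 with the length trend removed. Over the whole course from day 2 to day 10, 13 rose and 23 fell, against 73.4% of all genes called, 27.1% rising and 46.3% falling. The split was 17 and 19 under the repeated quantile normalization, which moved the all-gene median from -0.23 to -0.09. At 2-fold or more there were 10 members, against 27.3% of all genes.

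In tanks, from day 2 to day 5, SLD2 rose by over 4 log2 units, RAD27 by over 2, and RFA1 and MCM3 by over 1. ORC5, SLD5, ORC3 and RNR2 fell by over 1. Of the members 15 rose, 19 fell and 10 were not called. Over all genes 73.3% were called, 34.2% rising and 39.1% falling, and the medians were -0.14 and -0.05. At 2-fold or more there were 8 members, against 28.1% of all genes. From day 5 to day 10, 6 rose, 10 fell and 28 were not called. Over all genes 39% were called, 15.3% rising and 23.6% falling, and 3 members were at 2-fold or more, against 3.78%. That count of 16 was 10 without replicate 2 of the day 5 tanks, without replicate 1 of the day 10 tanks or without replicate 3 of the day 10 tanks, and the split was 8 to 4 with the length trend removed. SLD2 (1.69), MCM3 (1.68) and POL30 (0.94) led the rises, followed by SLD3 (0.60). PSF2 (-1.13), MCM4 (-0.44), CDC45 (-0.42) and DPB11 (-0.39) led the falls. The call of DPB11 ended without replicate 2 of the day 10 tanks (-0.25, adjusted p = 0.077), without replicate 2 or 3 of the day 5 tanks, and with the length trend removed (-0.32, adjusted p = 0.0549). That of CDC45 ended without replicate 1 of the day 5 tanks (-0.34, adjusted p = 0.126), without replicate 1 or 3 of the day 10 tanks, and with the length trend removed (-0.32, adjusted p = 0.0953). Over the whole course 14 rose and 22 fell, against 78.8% of all genes called, 35.5% rising and 43.3% falling. At 2-fold or more there were 13 members, against 36.9% of all genes. ORC5 (-2.00), PSF2 (-1.53), SLD5 (-1.52) and PRI1 (-1.23) fell most among the members.

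The time courses of the 2 scales overlapped in part. From day 2 to day 5, 7 members rose at both scales and 11 fell at both, 4 were called in opposite directions, 7 were called in vials and not in tanks, 12 in tanks and not in vials, and 3 at neither scale. As shares of the 44 these are 15.9%, 25%, 9.09%, 15.9%, 27.3% and 6.82%, against 17.3%, 25.6%, 8.97%, 15.7%, 21.5% and 10.9% of all genes, so the members lay near the background in this interval. From day 2 to day 10, 15.9% of members were called in opposite directions, against 9.16% of all genes. Most of these, 13.6% against 5.93%, fell in vials and rose in tanks. Some of these calls ended in an alternative, among them ORC1 in vials and RFA3 in tanks with the length trend removed. Across the 44 members the log2 changes of the 2 scales had a Pearson correlation of 0.48, against 0.54 across all genes. It was 0.74 for day 5 to day 10 (0.68 over all genes) and 0.62 for day 2 to day 10 (0.63). The points share arrays and a common normalization, so these are descriptions.

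Origin licensing genes moved in both directions within one complex. ORC5, a subunit of the origin recognition complex, read 10.65, 10.54 and 10.77 on the tank arrays of day 2 and 9.2, 9.03 and 9.07 on the vial arrays, a difference of 1.55 (SE 0.15, adjusted p = 6.87e-08). By day 5 it read 9.13, 8.78 and 8.77 in tanks and 9, 8.68 and 8.57 in vials, and by day 10 8.31, 8.84 and 8.82 and 8.31, 8.15 and 8.41. ORC5 was thus highest in day 2 tanks, and it fell in tanks by day 5 (-1.76, SE 0.15, adjusted p = 1.48e-08) and over the whole course (-2.00).

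ORC6, another subunit of that complex and a target of cyclin-dependent kinase, showed the opposite order on day 2, with 6.97, 7.17 and 6.84 in tanks and 8.79, 8.78 and 8.81 in vials (-1.80, SE 0.16, adjusted p = 4.58e-08). On day 5 the arrays read 6.82, 7.16 and 7.38 in tanks and 7.62, 7.62 and 7.21 in vials, and on day 10 7.11, 6.99 and 7.24 and 7.89, 7.34 and 7.31. The day 2 vials were the high group, and they fell by day 5 (-1.31, SE 0.16, adjusted p = 2.49e-06). In tanks the change was 0.13 and not called. ORC1, the ATPase subunit of the complex, was also low in day 2 tanks, with 9.24, 9.4 and 8.9 against 10.33, 10.41 and 10.27 in vials (-1.15, SE 0.14, adjusted p = 8.65e-07). It rose in tanks to 9.79, 10.08 and 10.2 on day 5 (0.84, SE 0.14, adjusted p = 3.14e-05), where it overlapped the vials at 9.96, 10.18 and 10.09. ORC2, ORC3 and ORC4, also subunits of the complex, fell in tanks by day 5 (-0.88, -1.04 and -0.84) and stood below the vials on day 5 (differences of -0.64, -0.56 and -0.40), the calls of ORC3 and ORC4 ending under the repeated quantile normalization. That of ORC3 also ended without replicate 2 of the day 5 tanks (-0.36, adjusted p = 0.171), without replicate 1 of the day 5 tanks, or without replicate 1 or 3 of the day 5 vials. The fall of ORC2 in vials (-0.23) turned its sign under that normalization.

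CDC6, which loads the MCM ring, was higher in tanks on every day. Its arrays read 8.42, 8.45 and 8.39 in tanks and 8.06, 7.91 and 8.07 in vials on day 2, 9.01, 9.26 and 9.04 and 8.49, 8.67 and 8.62 on day 5, and 8.83, 8.84 and 8.91 and 7.88, 8.17 and 8.06 on day 10. The groups did not overlap on any of the 3 days, and the differences were 0.41, 0.51 and 0.82. CDC6 was highest on day 5 at both scales, having risen by 0.58 in vials and 0.69 in tanks. TAH11, which encodes Cdt1, the partner that brings MCM to the origin, rose in vials. Its vial arrays read 10.02, 10.05 and 10.1 on day 2, 10.59, 10.45 and 10.65 on day 5 and 11.12, 10.95 and 11.11 on day 10, while the tank arrays lay between 10.09 and 10.41 throughout. The day 10 difference between the scales was -0.83 (adjusted p = 7.91e-07). In these 8 licensing genes 4 were higher and 2 lower in day 2 tanks, and 2 and 2 with the length trend removed, which ended the calls of ORC4 and TAH11. Over all genes 77.3% were called on day 2, 38.2% higher and 39.1% lower, and the 75% called among the licensing genes was near that. The call of ORC4 also ended without replicate 1 or 2 of the day 2 vials.

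The MCM helicase was higher in day 2 tanks in most of its subunits. Of the 6 genes 5 were called higher, against 38.2% of all genes. The share called in either direction (83.3%) was near that over all genes (77.3%). MCM6 (-0.11, not called) made it 6 of 6 with a positive sign under the repeated quantile normalization. MCM2 read 9.2, 9.24 and 9.24 on the tank arrays and 8.28, 8.27 and 8.28 on the vial arrays of day 2 (0.95, SE 0.07, adjusted p = 2.85e-09). MCM5 differed by 0.76, MCM7 by 0.64, MCM3 by 0.62 and MCM4 by 0.24, the call of MCM4 ending without replicate 1 of the day 2 tanks (0.17, adjusted p = 0.128) or replicate 2 of the day 2 vials. The excess in tanks on day 5 was 0.34 for MCM2 and 0.30 for MCM5, the other 4 subunits not being called. The MCM5 value lost its call with the length trend removed and in 11 of the 18 fits that left out 1 array, among them those without any one of the day 5 tank arrays or without replicate 2 or 3 of the day 5 vials. On day 10 MCM6 was lower in tanks (-0.54) while MCM2, MCM3 and MCM5 were higher, the call of MCM3 (0.48) ending without replicate 1 of the day 10 tanks (0.35, adjusted p = 0.0566).

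MCM3 differed from the other subunits of the ring in its course. It read 8.64, 8.52 and 8.74 in vials and 9.17, 9.21 and 9.37 in tanks on day 2, 9.89, 10.07 and 10.25 and 10.15, 10.57 and 10.28 on day 5, and 11.43, 11.38 and 11.78 and 12.28, 12 and 11.76 on day 10. Each day's arrays lay above those of the day before at both scales. The whole-course rise was 2.90 in vials (adjusted p = 4.24e-11) and 2.76 in tanks (adjusted p = 4.46e-11). MCM5 went the other way, from 8.66, 8.47 and 8.74 in vials and 9.53, 9.27 and 9.35 in tanks on day 2 to 8.33, 8.18 and 7.91 and 8.52, 8.36 and 8.43 on day 5, and 7.84, 7.78 and 7.83 and 8.13, 8.56 and 8.4 on day 10. Its change by day 5 was -0.48 in vials, which lost its call under the repeated quantile normalization (-0.25, adjusted p = 0.0666), and -0.94 in tanks (adjusted p = 2.75e-06). MCM2 fell in tanks (-0.65) and was not called in vials (-0.03). MCM7 rose in vials (0.42) and had a change of -0.32 in tanks, a call that ended under the repeated quantile normalization and in 12 of the 18 fits that left out 1 array, among them those without any one of the day 2 tank arrays or without replicate 1 or 3 of the day 5 tanks.

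**Figure D3:**
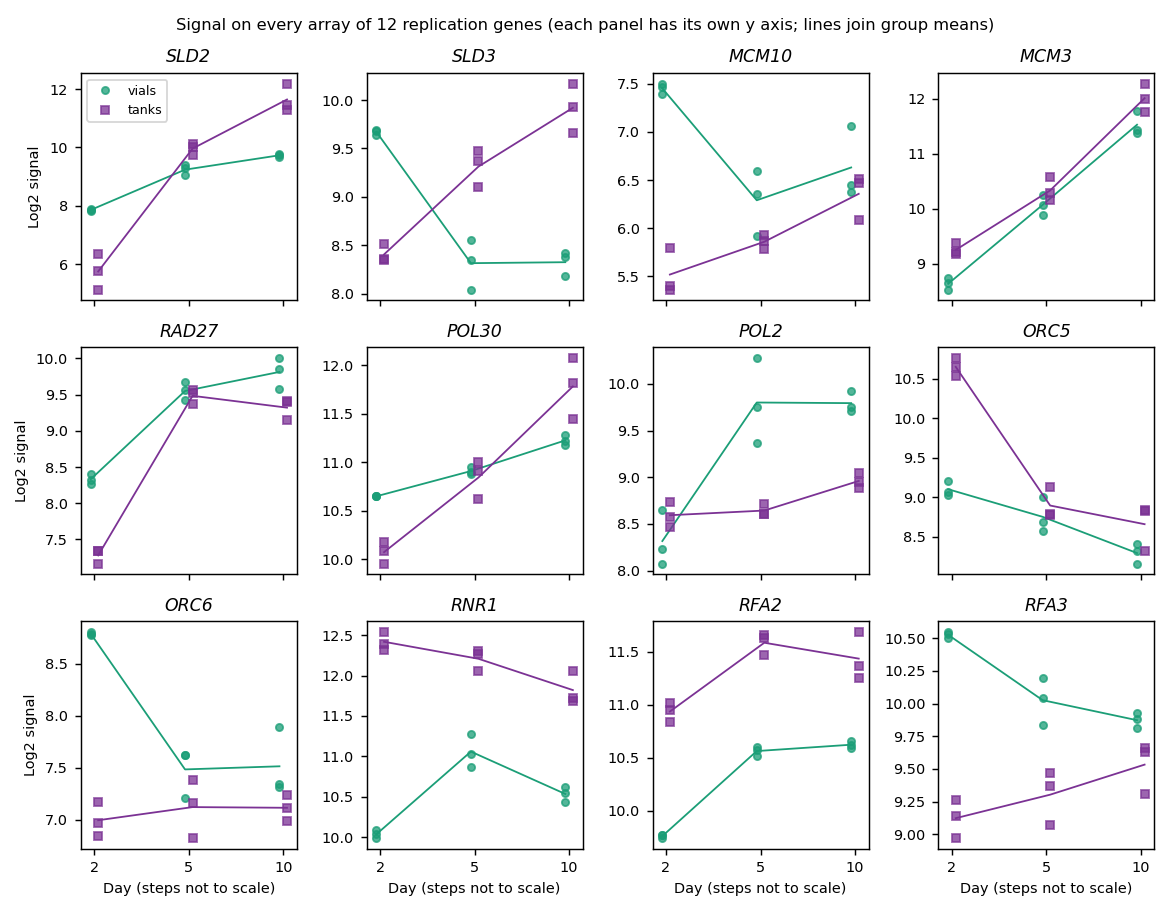
Log2 signal (y axis, one scale per panel) on every array of 12 replication genes against day (x axis, evenly spaced steps), circles for vials and squares for tanks, with lines through the group means of 3 arrays. SLD2 climbs from 5.74 to 11.65 in tanks, SLD3 crosses between the scales after day 2, and RNR1 stays higher in tanks on all 3 days.

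Among the firing factors, SLD2 had the widest course of all members. Sld2 is the protein that, once phosphorylated by cyclin-dependent kinase, binds Dpb11 to start replication. On day 2 its arrays read 6.35, 5.77 and 5.11 in tanks and 7.83, 7.85 and 7.88 in vials. On day 5 they read 9.74, 10.01 and 10.13 in tanks and 9.04, 9.28 and 9.39 in vials, and on day 10 12.19, 11.29 and 11.45 and 9.79, 9.73 and 9.67. Tanks were therefore the low group on day 2 (-2.11, SE 0.25, adjusted p = 7.35e-07) and the high group on day 10 (1.92, SE 0.25, adjusted p = 6.32e-06), with no overlap on any day. The rise in tanks was 4.22 (SE 0.25) by day 5 and 5.91 over the course (adjusted p = 5.42e-12). In vials it was 1.38 and 1.88 (adjusted p = 2.84e-06). The day 2 tank arrays of SLD2 hold the lowest value of any member (5.11, against a background of 4.48). The effect of so low a signal on these sizes was not tested. The day 5 difference of 0.72 was not called without replicate 3 of the day 5 tanks (0.64, adjusted p = 0.0587), without replicate 1 of the day 5 vials (0.62, adjusted p = 0.0691), or with the length trend removed (0.57, adjusted p = 0.056). Without replicate 2 of the day 10 tanks the whole-course rise was 6.08. SLD2 lies between HAP4, which encodes an activator of respiratory genes, and YKL107W, and both were looked at after values were seen. HAP4 was lower in day 2 tanks (-1.96, adjusted p = 3.49e-11) and rose there by day 5 (2.03, adjusted p = 2.81e-11), but it was not called between the scales on day 5 (0.02) or day 10 (-0.11), nor in vials from day 2 to day 5 (0.06). YKL107W was higher in tanks on all 3 days (0.79, 0.77 and 1.55), and its changes by day 5 were not called (-0.10 in vials and -0.12 in tanks). In tanks it rose from day 5 to day 10 (1.01, adjusted p = 1.44e-05) and over the whole course (0.89, adjusted p = 3.4e-06). Its whole-course change in vials was not called (0.13). The coding regions of SLD2 and these neighbours do not overlap in the reference. Whether the neighbours have a part in the SLD2 signal was not tested.

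SLD3, whose product also binds Dpb11 and recruits Cdc45, crossed between the scales. It read 9.64, 9.68 and 9.69 in vials and 8.51, 8.35 and 8.36 in tanks on day 2, then 8.04, 8.56 and 8.35 and 9.1, 9.37 and 9.47 on day 5, and 8.38, 8.42 and 8.18 and 10.17, 9.66 and 9.93 on day 10. Vials were higher on day 2 and tanks on days 5 and 10, without overlap. It fell in vials by day 5 (-1.36, SE 0.14, adjusted p = 2.6e-07) and rose in tanks (0.91, SE 0.14, adjusted p = 1.81e-05). MCM10, an initiation factor that acts on the loaded helicase, read 7.46, 7.5 and 7.39 in day 2 vials and 5.36, 5.4 and 5.8 in day 2 tanks (-1.93, SE 0.19, adjusted p = 8.89e-08). Its day 2 tank mean (5.52) was the lowest group mean of any member. MCM10 fell in vials by day 5 (-1.16), and the scales overlapped on days 5 and 10. DPB11, the scaffold that Sld2 and Sld3 bind, was lower in tanks on all 3 days (-0.59, -0.58 and -0.86). CDC45, the helicase partner, was not called on day 2 (-0.18) and was higher in tanks on days 5 (0.46) and 10 (0.45), calls that ended with the length trend removed. The day 5 call also ended without replicate 1 of the day 5 tanks or replicate 1 or 3 of the day 5 vials, and the day 10 call without replicate 2 of the day 10 tanks (0.37, adjusted p = 0.0579) or replicate 2 of the day 10 vials.

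The 4 GINS subunits, which form one complex, did not share a course. SLD5 read 9.3, 9.35 and 9.12 in day 2 tanks and 7.95, 7.95 and 8.07 in day 2 vials (1.27, SE 0.16, adjusted p = 1.9e-06). It read 8.21, 8.05 and 7.98 in tanks and 7.99, 7.98 and 7.55 in vials on day 5, and 7.49, 8.22 and 7.51 and 7.4, 7.35 and 7.3 on day 10. SLD5 was high in day 2 tanks and fell there by day 5 (-1.18). In day 10 tanks replicate 2 (8.22) stood above the other 2 arrays, and the whole-course change was -1.52 with it and -1.76 without it.

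PSF2 read 8.85, 8.75 and 8.85 in tanks and 8.38, 8.33 and 8.41 in vials on day 2, 8.65, 8.29 and 8.31 and 7.93, 7.84 and 7.78 on day 5, and 7.06, 7.53 and 7.25 and 7.35, 7.49 and 7.21 on day 10. It was higher in tanks on days 2 (0.44) and 5 (0.57), fell at both scales over the course, and overlapped on day 10. Its fall in vials by day 5 (-0.53) was not called under the repeated quantile normalization (-0.30, adjusted p = 0.0661). PSF3 was lower in tanks on all 3 days (-0.84, -0.85 and -1.06), with no called change in vials. PSF1 rose in tanks by day 5 (0.85) and was higher there on days 5 (0.56) and 10 (0.29), the day 10 call ending without replicate 1 of the day 10 vials (0.21, adjusted p = 0.115). So on day 2, 2 GINS subunits were higher in tanks, 1 lower and 1 not called. Over all genes 38.2% were higher and 39.1% lower.

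The polymerase genes with the largest differences on day 2 were those of primase and its partner, the complex that starts each new strand. PRI2, the large primase subunit, read 10.12, 10.06 and 9.94 in vials and 9.17, 8.89 and 8.62 in tanks (-1.15, SE 0.14, adjusted p = 8.95e-07). PRI1, the catalytic primase subunit, read 8.82, 8.61 and 8.81 in vials and 9.49, 9.28 and 9.38 in tanks (0.64, SE 0.15, adjusted p = 0.000871). The 2 subunits of one enzyme therefore differed in opposite directions between the scales. By day 5 PRI2 had fallen in vials to 8.99, 8.78 and 8.83 (-1.17, SE 0.14, adjusted p = 1.04e-06) and risen in tanks to 9.67, 9.37 and 9.6 (0.66, SE 0.14, adjusted p = 0.00036), so that tanks were higher on days 5 and 10. PRI1 fell at both scales, to 8.25, 8.13 and 7.98 in vials and 8.68, 8.38 and 8.22 in tanks (-0.63 and -0.96), and to 7.75, 7.78 and 8.14 and 8.07, 8.47 and 7.93 by day 10. POL12, the regulatory subunit of polymerase alpha, read 9.21, 9.17 and 9.25 in day 2 vials and 8.3, 8.13 and 8.16 in day 2 tanks (-1.02, SE 0.08, adjusted p = 1.1e-08). It fell in vials to 8.73, 8.7 and 8.61 by day 5 and rose in tanks to 8.46, 8.49 and 8.42, the same directions as PRI2. POL1 was not called between the scales on any day.

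POL2, the catalytic subunit of polymerase epsilon that copies the leading strand, read 8.23, 8.07 and 8.65 in vials and 8.57, 8.74 and 8.47 in tanks on day 2, which overlapped. On day 5 it read 9.37, 10.28 and 9.75 in vials and 8.61, 8.71 and 8.61 in tanks, and on day 10 9.92, 9.75 and 9.71 and 8.95, 9.04 and 8.89. It rose in vials (1.48, SE 0.18, adjusted p = 1.57e-06) and had no called change in tanks (0.05). POL2 is the neighbour of ORC5 on its chromosome. POL3, the catalytic subunit of polymerase delta, fell at both scales over the course (-1.06 in vials and -0.82 in tanks), and so did its partner POL31 (-0.99 and -0.34). The POL31 call in tanks ended with the length trend removed (-0.04, adjusted p = 0.763) and without replicate 2 of the day 2 tanks (-0.29, adjusted p = 0.0842). Of the 7 polymerase and primase genes 1 was higher and 2 lower in day 2 tanks, against 38.2% and 39.1% of all genes. The split was 4 and 2 under the repeated quantile normalization.

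POL30, which encodes the sliding clamp PCNA, read 10.65, 10.65 and 10.65 in vials and 10.18, 9.95 and 10.09 in tanks on day 2 (-0.58, SE 0.13, adjusted p = 0.000604). On day 5 it read 10.95, 10.88 and 10.9 and 10.91, 10.62 and 11, and on day 10 11.28, 11.18 and 11.22 and 12.08, 11.45 and 11.82. Tanks were below vials on day 2, overlapped them on day 5 and lay above them on day 10 (0.56, SE 0.13, adjusted p = 0.0015). The rise over the course was 1.71 in tanks (adjusted p = 2.52e-09) and 0.58 in vials (adjusted p = 0.000686).

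The clamp loader genes spanned less than POL30 (1.71), with ranges of group means from 0.33 (RFC3) to 1.12 (RFC5). The range of RFC1 was 1.00, and the median over all members was 1.20. RFC2 read 11.42, 11.35 and 11.39 in vials and 10.71, 10.75 and 10.76 in tanks on day 2 (-0.64, SE 0.08, adjusted p = 2.56e-06), rose in tanks to 11.15, 11.17 and 11.36 by day 5 (0.49) and overlapped the vials there. RFC5 read 8.98, 8.79 and 9.14 in vials and 9.59, 9.18 and 9.59 in tanks on day 2 (0.48, SE 0.13, adjusted p = 0.00324), and fell in tanks to 8.6, 8.4 and 8.44 (-0.97, SE 0.13, adjusted p = 4.27e-06). RFC1, the large subunit, fell from 9.2, 9.18 and 9.27 to 8.81, 8.72 and 8.43 in vials (-0.56, SE 0.10, adjusted p = 0.00015) and also fell in tanks (-0.76). RFC3 had differences between -0.24 and 0.13 over the 11 comparisons and was not called. On day 5 the scale differences of the 6 clamp and clamp loader genes lay between -0.25 and 0.02, also not called, while 61.9% of all genes were called. On day 2, 1 was higher and 2 lower, against 38.2% and 39.1% of all genes. That split became 4 and 2 under the repeated quantile normalization.

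The 3 subunits of RPA, which coats single-stranded DNA as one complex, differed in opposite directions. RFA2 read 10.95, 11.02 and 10.84 in tanks and 9.74, 9.77 and 9.77 in vials on day 2 (1.17, SE 0.10, adjusted p = 2.13e-08), 11.63, 11.66 and 11.47 and 10.6, 10.57 and 10.52 on day 5, and 11.25, 11.69 and 11.37 and 10.59, 10.66 and 10.62 on day 10. RFA3 read 8.97, 9.14 and 9.26 in tanks and 10.53, 10.55 and 10.5 in vials on day 2 (-1.40, SE 0.12, adjusted p = 3.05e-08), 9.07, 9.37 and 9.47 and 10.2, 10.04 and 9.84 on day 5, and 9.66, 9.31 and 9.63 and 9.88, 9.81 and 9.93 on day 10. RFA2 was higher and RFA3 lower in tanks on all 3 days with no overlap, the day 10 call of RFA3 (-0.34) ending with the length trend removed (-0.04, adjusted p = 0.787), without replicate 2 of the day 10 tanks (-0.22, adjusted p = 0.142), or without replicate 1 or 3 of the day 10 vials. RFA1, the large subunit, rose at both scales, from 10.5, 10.58 and 10.47 in vials and 10.27, 10.42 and 10.33 in tanks on day 2 to 11.08, 10.87 and 11.12 and 11.38, 11.55 and 11.51 on day 5 (0.51 and 1.14).

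Of the 2 Okazaki fragment enzymes, RAD27, the flap endonuclease, read 7.16, 7.34 and 7.34 in tanks and 8.32, 8.27 and 8.4 in vials on day 2 (-1.05, SE 0.11, adjusted p = 2.76e-07). By day 5 the arrays read 9.37, 9.52 and 9.56 and 9.42, 9.56 and 9.67, and by day 10 9.4, 9.15 and 9.41 and 9.85, 10.01 and 9.58. RAD27 rose at both scales by day 5, by 2.20 (SE 0.11) in tanks and 1.22 (SE 0.11) in vials. The scales overlapped on day 5, and on day 10 tanks were lower without overlap (-0.50, SE 0.11, adjusted p = 0.00129). CDC9, the DNA ligase, read 9.81, 9.96 and 9.91 in tanks and 9.26, 9.2 and 9.31 in vials on day 2 (0.64, SE 0.09, adjusted p = 6.35e-06) and 9.65, 9.66 and 9.44 and 9.26, 9.33 and 9.18 on day 5. It fell in tanks (-0.31) and was not called in vials (0.00).

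Ribonucleotide reductase, which makes the deoxynucleotides, was the role in which all members were higher in tanks on all 3 days, under the main scaling and under each of the 3 other scalings. Over all genes 38.2%, 33.1% and 32.3% were higher in tanks on days 2, 5 and 10, and the share higher on all 3 days was not computed. Single members of other roles, CDC6 and RFA2 among them, were also higher in tanks on all 3 days. RNR1, the large subunit, read 12.54, 12.32 and 12.39 in tanks and 10.09, 9.99 and 10.04 in vials on day 2, 12.3, 12.27 and 12.05 and 11.03, 11.28 and 10.87 on day 5, and 11.68, 12.06 and 11.72 and 10.55, 10.44 and 10.62 on day 10. The day 2 difference of 2.37 (SE 0.12, adjusted p = 8.71e-11) corresponds to 5.19-fold and is the largest of the 44 members that day. On days 5 and 10 it was 1.15 (adjusted p = 6.31e-07) and 1.28 (adjusted p = 1.75e-07). RNR1 rose in vials by day 5 (1.02, SE 0.12, adjusted p = 1.12e-06) and had no called change in tanks (-0.21).

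RNR2 and RNR4 encode the small subunits. RNR2 read 13.55, 13.31 and 13.62 in tanks and 12.63, 12.8 and 12.68 in vials on day 2 (0.79, SE 0.11, adjusted p = 7.57e-06), 12.6, 12.42 and 12.33 and 12.14, 11.94 and 11.8 on day 5, and 12.2, 12.48 and 12.22 and 11.58, 11.55 and 11.7 on day 10. RNR4 was higher in tanks by 0.47, 0.35 and 0.50 on the 3 days. Both fell from day 2 to day 5 at both scales, with changes of -0.74 in vials and -1.04 in tanks for RNR2, and -0.65 and -0.77 for RNR4. RNR1 was not called lower at either scale in that interval.

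The change from day 2 to day 5 was then compared between the scales directly. It was more positive in tanks than in vials for 15 members and more negative for 13, with 16 not called. Over all genes 58.8% were called, 32.9% more positive and 25.9% more negative. At 2-fold or more there were 10 members, against 21.6% of all genes. SLD2, SLD3, PRI2 and MCM10 had the largest positive differences in change and POL2, ORC5, RNR1 and SLD5 the largest negative ones. For SLD3 the difference was 2.26 (SE 0.20, adjusted p = 1.61e-07), with a fall in vials and a rise in tanks. PRI2 and POL12 were also called in opposite directions in the 2 scales, as was MCM7 with the signs exchanged and the limits on its tank value given above. Under the repeated quantile normalization the split was 12 to 15, and with the length trend removed 13 to 13. This comparison uses the day 2 arrays that the day 2 comparison of the scales also uses, so the 2 are not separate evidence.

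For the change from day 5 to day 10, 3 members were called, all more negative in tanks, against 4.92% of all genes called, 2.62% more positive and 2.29% more negative, and 1.38% called at 2-fold or more. They were PSF2 (-0.64, SE 0.17, adjusted p = 0.0377), MCM6 (-0.63, SE 0.14, adjusted p = 0.0133) and TAH11 (-0.52, SE 0.12, adjusted p = 0.0216). The count was 1 without replicate 1 of the day 5 tanks, without replicate 2 of the day 5 vials, without replicate 3 of the day 10 tanks or without replicate 1 of the day 10 vials, and 7 without replicate 2 of the day 10 tanks. Under the repeated quantile normalization it was 2 higher and 2 lower, and PSF2 was not called (-0.69, adjusted p = 0.0562).

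**Figure D4:**
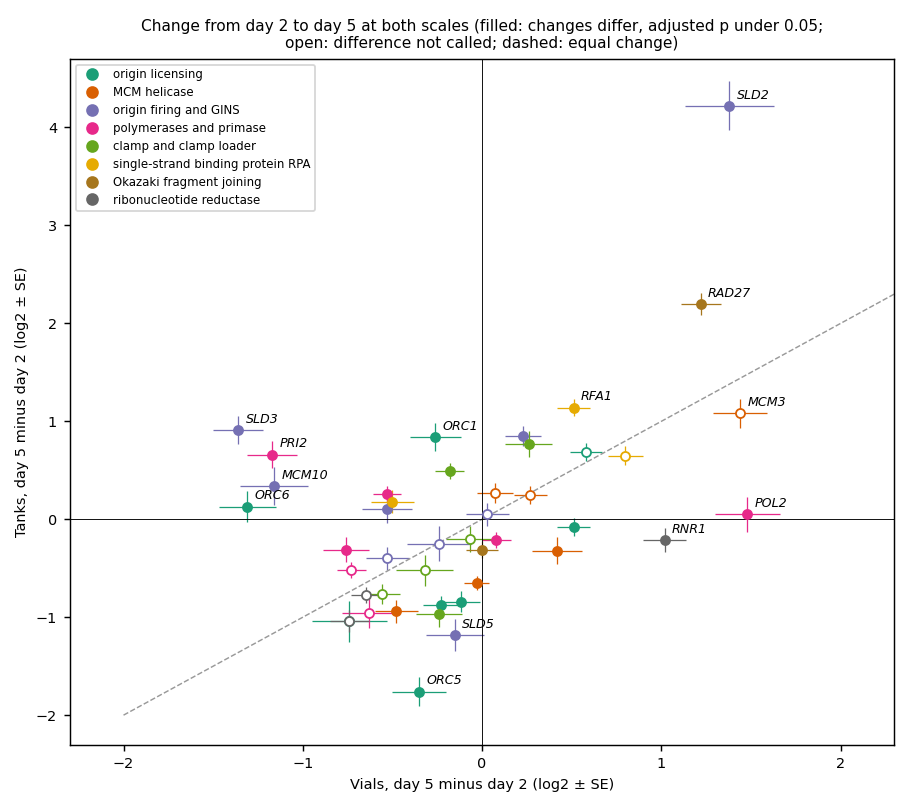
Log2 change from day 2 to day 5 in vials (x axis) and tanks (y axis) for the 44 genes, coloured by role, with SE bars; filled points mark a called difference between the changes and the dashed line equal change. SLD2 lies far above the line, SLD3 and PRI2 where a fall in vials meets a rise in tanks, and POL2 and RNR1 to the right of 0 with little change in tanks.

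Other genes around the replication fork also split between the scales on day 2. For the list counts here and below, the shares over all genes were 38.2% higher and 39.1% lower in day 2 tanks. From day 2 to day 5 they were 26.5% rising and 41.1% falling in vials, and 34.2% and 39.1% in tanks. Of 19 other replisome proteins 4 were higher in tanks and 11 lower, and 7 and 8 under the repeated quantile normalization. RNH203 of ribonuclease H2 (-2.50, adjusted p = 4.38e-08), the fork checkpoint mediator MRC1 (-2.27, adjusted p = 5.25e-07) and topoisomerase I, TOP1 (-2.15, adjusted p = 3.39e-06), were the lowest. RNH201, the catalytic subunit of ribonuclease H2 (0.44), DCC1 (0.42) and DPB2 (0.40) were the highest. The list had 4 rises and 9 falls in vials from day 2 to day 5, and 6 and 7 in tanks.

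Of 16 S-phase kinases and checkpoint genes 5 were higher in day 2 tanks and 7 lower, and 7 and 4 under the repeated quantile normalization. The checkpoint kinase MEC1 was higher (1.02, adjusted p = 1.4e-08) and its partner LCD1 lower (-1.74, adjusted p = 1.1e-08). By day 5, 1 rose and 11 fell in vials, and 6 rose and 9 fell in tanks, where the checkpoint kinase RAD53 rose by 1.29 and DBF4, the activator of Cdc7 kinase, by 1.01. Of 12 other nucleotide supply genes 5 were higher and 3 lower in day 2 tanks. They included WTM1, which in yeast holds Rnr2 and Rnr4 in the nucleus (1.28, adjusted p = 3.58e-09), the dUTPase DUT1 (1.23), RNR3, the alternative large subunit (0.84), and thymidylate kinase CDC8 (-0.85). By day 5, 4 rose and 3 fell in vials, and 3 and 6 in tanks.

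Of 17 genes of G1/S control 7 were higher in day 2 tanks and 7 lower, and 8 and 4 under the repeated quantile normalization. MBP1, the DNA-binding subunit of the MBF activator of replication genes, was lower (-2.28, adjusted p = 1.46e-05), and NRM1, the MBF co-repressor, was higher (0.98, adjusted p = 1.18e-07). The G1 cyclin CLN3 was higher in day 2 tanks (0.77) and fell there by day 5 (-1.38). By day 5, 5 of the list rose and 4 fell in vials, and 6 and 4 in tanks.

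Core histone genes, whose transcription is tied to S phase, were mostly lower in day 2 tanks. Of 7 measured 1 was higher and 5 lower, against 38.2% and 39.1% of all genes, though with the length trend removed 2 were higher and 3 lower. HHF1 (-1.57) and HHT1 (-1.38) were lower, and HTB2 (0.46) was higher. By day 5, 4 of the 7 rose in vials, where HHT1 fell, and 5 rose in tanks. Of 11 chromatin assembly genes 6 were higher and 5 lower on day 2, led by HIR2 (1.21) and HPC2 (-1.74), 2 subunits of the histone-regulating HIR complex. By day 5, 1 rose and 1 fell in vials, which became 5 and 0 under the repeated quantile normalization, and 4 and 3 in tanks. Of 9 cohesion genes 1 was higher and 6 lower on day 2, led by the cohesin subunit SMC1 (-3.63, adjusted p = 1.85e-10). By day 5, 1 rose and 4 fell in vials, and 3 and 2 in tanks. Of 13 mitosis genes measured 5 were higher and 5 lower on day 2, with the mitotic cyclins CLB1 (2.38) and CLB2 (1.41) higher and the spindle motors CIN8 (-3.19) and KIP1 (-1.89) lower. By day 5, 4 rose and 1 fell in vials, and 5 and 6 in tanks, where CLB1 (-2.64) and CLB2 (-1.73) fell.

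Genes that mark cells in other states were examined beside these results. Of 12 meiosis genes 4 were higher and 2 lower in day 2 tanks, and 8 and 1 under the repeated quantile normalization. Their summed signal lay between 1940 and 2090 intensity units on the day 2 vial arrays, between 2270 and 2540 on day 5 and between 3310 and 3500 on day 10. In tanks the 3 ranges were 2260 to 2590, 3500 to 3640 and 6980 to 8470. The sum leans on its strongest genes. SPS1 had a log2 mean of 7.32, 9.46 and 11.96 in tanks on the 3 days, and DMC1 was next on day 10 (10.23). In tanks IME1, SPO13, SPO21 and HOP1 had lower means on day 10 than on day 2, and the other genes of the list higher ones. None of the 12 was at background on every array of a group. SMK1 (2.30) and SPS1 (2.14), kinases of spore formation, led the 6 rises in tanks by day 5, while SPO21 (-2.47) led the 3 falls, and in vials 2 rose and 3 fell. Of 12 stationary-phase and stress genes 3 were higher and 4 lower in day 2 tanks, led by SNO1 (2.67), a gene of vitamin B6 synthesis, and by the stress protein gene HSP12 (-1.19). By day 5, 4 rose and 3 fell in vials, and 1 and 6 in tanks. Their summed signal was between 158000 and 186000 in vials and between 132000 and 138000 in tanks. The part of such cells in the members' results was not tested.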

How the data were processed

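Total RNA (100 ng per sample) was amplified and 7.5 µg of labelled product hybridised per array, 18 arrays in all. The submitters' processing notes name Affymetrix Expression Console and RMA, each with a version not given in the sources used here. Values deposited by the authors are intensities per probe set, linear, from 4.79 to 39396. The planned tests assumed log2 input, and each deposited intensity was therefore converted to log2 first. RMA scales every array to the same distribution, so a change in total RNA is not seen, and the number of arrays limits the precision.

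Of 10928 probe sets, 166 controls, 1746 taken as fission yeast, 1 listed with several genes and 3517 with no listed gene were left out. Those taken as fission yeast had a gene symbol outside the S. cerevisiae reference. The 3517 were not sorted by species, so they may hold further fission yeast probe sets. The other 5498 stood for 5449 genes, and the probe set with the highest mean was kept for the 47 genes with several. Names, coding lengths and neighbours came from the RefSeq annotation of S. cerevisiae.

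Group means of all 18 arrays were fitted in limma 3.58.1 (R 4.3.3) with the default prior and 12 residual degrees of freedom, for 11 comparisons. The 10 lists of other genes and the members were chosen with earlier results of these data known. Per-array values were given for the largest called rise and fall of each role on day 2 and from day 2 to day 5, and for members against most of their role. Elsewhere the 4 largest rises and falls were named, and up to 3 of each from a list of other genes. HHF2 had no listed probe set, and 1 other gene of these lists is not reported here. The method was tested on simulated data. Promoter motifs were planned but not analysed here, and no sequences are shown. Figures were drawn with matplotlib 3.10.9.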

Additional observations from a re-analysis of the deposited data

Results flagged for a closer look

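The change over time differed between the scales, by the test of that difference (limma, tanks minus vials, adjusted over all genes), for 28 members from day 2 to day 5 and for 3 from day 5 to day 10. These are 63.6% and 6.82% of the 44, against 58.8% and 4.92% of all genes, so both shares lay near the background. The 4 largest differences in each direction are given for the first interval and all 3 for the second. From day 2 to day 5 the difference was 2.83 for SLD2 (SE 0.35, adjusted p = 5.35e-06), 2.26 for SLD3 (adjusted p = 1.61e-07), 1.83 for PRI2 (adjusted p = 1.19e-06) and 1.50 for MCM10 (adjusted p = 0.000174). It was -1.43 for POL2 (adjusted p = 0.000167), -1.41 for ORC5 (adjusted p = 3.3e-05), -1.22 for RNR1 (adjusted p = 1.57e-05) and -1.02 for SLD5 (adjusted p = 0.00117). SLD3 and PRI2 rose in tanks and fell in vials, SLD2 rose at both scales, and POL2 and RNR1 rose in vials with no called change in tanks.

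From day 5 to day 10 the difference was -0.64 for PSF2 (adjusted p = 0.0377), -0.63 for MCM6 (adjusted p = 0.0133) and -0.52 for TAH11 (adjusted p = 0.0216). The call of PSF2 was lost under several alternatives, with adjusted p between 0.0502 and 0.112 there. That of TAH11 was lost when only the compared groups were fitted (adjusted p = 0.0685), and without replicate 1 of the day 5 tanks, replicate 2 of the day 5 vials, replicate 3 of the day 10 tanks, or replicate 1 or 3 of the day 10 vials (adjusted p between 0.0509 and 0.0648).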

How the results depend on the processing

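Of the 484 member values (44 genes in 11 comparisons) 284 were called. Across the alternatives other than a required 2-fold change, 2 called values turned their sign, both of ORC2 in vials: from day 2 to day 5 under the repeated quantile normalization (0.02), and from day 2 to day 10 there (0.07) and with the length trend removed (0.01). A further 88 of the 200 values not called, MCM6 on day 2 among them, took the other sign in at least 1 alternative. The call ended in at least 1 alternative for 72 of the 284 values. Removing the length trend ended 2, 3 and 7 calls between the scales on days 2, 5 and 10, then 2, 6 and 5 in vials, 3, 6 and 3 in tanks, and 2 and 0 for the differences in change, in the order of comparisons used below. Counts of called members stayed within 1.5 times of the reported ones under the other normalizations, priors, probe set choices and filters, with these exceptions. Array weights gave 25 called members in place of 15 for day 10 against day 5 in vials, and 17 in place of 3 for the difference in that change. Fitting only the compared groups gave 8 in place of 16 for day 10 against day 5 in tanks. For the difference in change from day 5 to day 10, that limma fit also ended the calls of PSF2 (adjusted p = 0.112) and TAH11 (adjusted p = 0.0685). Requiring a 2-fold change as well left 13, 3 and 4 members between the scales on days 2, 5 and 10, then 9, 1 and 10 in vials for day 5 against 2, 10 against 5 and 10 against 2, 8, 3 and 13 in tanks, and 10 and 0 for the 2 differences in change. With single arrays left out the lowest and highest counts, in the same order, were 29 and 32, 21 and 29, 25 and 31 between the scales, 26 and 31, 7 and 17, 33 and 36 in vials, 30 and 34, 10 and 18, 33 and 37 in tanks, and 24 and 28, 1 and 7 for the differences in change.

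No source used here states whether same-numbered arrays belong together. Of 27 pairs of same-numbered arrays 11 had deviations correlated over 0.1, from -0.47 to 0.76, and 5 correlated best with their own number. Deviations from a mean of 3 arrays constrain each other, so these values cannot decide whether samples were paired. With the replicate number as a block the counts were 31, 24 and 29 between the scales and 28 and 3 for the differences in change, and the block ended 10 of the 284 calls, among them that of PSF2 for the difference in change from day 5 to day 10 (adjusted p = 0.0548), of MCM5 between the scales on day 5 (adjusted p = 0.058) and of MCM7 in tanks by day 5 (adjusted p = 0.0615). All members lay above the background level (4.48) on every array. The lowest group means were those of MCM10 (5.52) and SLD2 (5.74) in day 2 tanks. The effect of so low a signal on the size of their differences was not tested.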
